A study of Mus musculus with 5 samples.

Results

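The Ras to ERK cascade was followed through 31 genes, from the adapters at growth factor receptors to the kinases downstream of ERK. They were taken by name for their place in the pathway and are 31 of the 55147 gene symbols to which the transcripts of the deposited table could be summed. Of these symbols 12518 reached 1 TPM in at least 2 samples and were tested, and 30 of the 31 genes were among them. Gab2 fell below this limit and is described by its values alone. TPM sets the reads of a transcript against its length and against the total of the sample, so levels of different genes are compared here per length.

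All samples were E14Tg2a mouse embryonic stem (ES) cells, an established line, grown untreated on gelatin in medium with serum and LIF, the cytokine that keeps ES cells undifferentiated. The 3 WT samples are labelled wild type and are the parent cells. The 2 C3G KO samples carry a puromycin resistance cassette, knocked in by CRISPR, in place of early exons of Rapgef1, the gene of the guanine nucleotide exchange factor C3G. KO colonies were picked under puromycin and several clones were kept by the study, but which clone each sample came from is not given in the sources used here, and the WT cells did not go through this selection. The study calls the samples of each group independent, but whether they were separate cultures is not given in the sources used here, so p-values measure the spread between these samples, which may be technical.

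Ras proteins are GTPases that are switched on by exchange factors and switched off by GTPase activating proteins (GAPs). Receptors recruit the adapters Grb2, Shc1, Gab1 and Frs2 with the phosphatase Shp2, these bring the exchange factors Sos1 and Sos2 to Ras, and active Ras passes the signal to RAF, MEK and ERK kinases and from ERK to the RSK kinases. In ES cells, ERK activity set off by FGF4 is known to move cells out of the undifferentiated state. C3G acts mainly on Rap1 and is also known as an exchange factor for R-Ras and TC21, the products of Rras and Rras2. The question addressed was whether genes at each step of the cascade had another RNA level in cells without C3G.

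Rapgef1 (chromosome 2 of GRCm38, 29619720 to 29740978) had 11.56, 10.31 and 9.64 TPM as deposited in the WT samples, against 3.92 and 5.55 TPM with C3G KO. Both C3G KO samples lay below all WT samples, but the sum over the gene includes exons outside the replaced region, so it checks the labels in part only. Small RNAs held between 63.2% and 67.6% of the TPM in WT and 78.45% and 69.8% in C3G KO. This class was taken by annotated gene type and also includes ribosomal RNA, mitochondrial ribosomal RNA and miscellaneous RNA. Protein-coding genes held between 28.8% and 31.8% in WT and 18.6% and 26.0% in C3G KO. TPM add up to the same total in every sample, so a larger share of small RNA leaves a smaller share to the sum of the other genes. As deposited, the median log2 difference between C3G KO and WT over all tested genes was -0.55. Each sample was therefore divided by the median of its ratios to the geometric mean of each gene, which moved this median to 0.0052, and values so treated are called scaled TPM. Log2 differences are those of limma on log2(scaled TPM + 1), on which weakly expressed genes change by less than they do in TPM, and an adjusted p is from the same test over all 12518 genes. On the scaled values, Rapgef1 differed by -0.41 (SE 0.059, adjusted p = 0.00444). Without read counts in the table, depth is unknown and counting error cannot be given.

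With scaled TPM, 2 of the 30 tested cascade genes were higher in C3G KO, 7 were lower and 21 did not pass the adjusted p threshold of 0.05. Mapk3, which encodes the kinase ERK1, rose most, by 0.60 on the log2 scale, and the RSK gene Rps6ka2 rose by 0.38, although in TPM as deposited the groups overlapped for both, with log2 differences of -0.05 and -0.18. The R-Ras family genes Rras2 and Rras, the RSK gene Rps6ka3, the ERK5 gene Mapk7, the adapters Shc1 and Gab1 and the GAP gene Rasa2 fell by between 0.36 and 0.52. Over all tested genes 14.1% were called higher and 16.6% lower, so that the 6.67% of cascade genes called higher lay below this background and the 23.3% called lower lay above it, with no test of either share. The median log2 difference of the 30 genes was -0.12. With TPM as deposited, 24 cascade genes were called lower, 0 higher and 6 did not pass, beside 56.8% lower and 1.45% higher of all tested genes, and the median was -0.70. All 30 genes had a log2 difference below 0 as deposited. Scaling to the total of protein-coding genes, which left the median of all tested genes at -0.17, gave 1 higher and 15 lower cascade genes. These are 3.33% and 50.0% of the cascade genes, beside 5.65% and 29.8% of all tested genes. Without WT replicate 2 only 1 gene was called higher (3.33%, beside 7.11% of all tested genes) and 2 lower (6.67%, beside 10.6%). Both shares then lay below those of all tested genes. Without C3G KO replicate 1 the median log2 difference of the 30 genes was -0.12. With TPM as deposited, 7 (23.3%) were lower without WT replicate 1 or WT replicate 2, beside 20.6% and 17.0% of all tested genes. The deposited median without C3G KO replicate 1 was -0.48, beside -0.34 over all tested genes. In bulk samples a lower share of cells that express a gene and less RNA per cell cannot be told apart.

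Both C3G KO samples lay above all WT samples in scaled TPM for 5 of the 30 genes, beside 29.5% of all tested genes, and below them for 11, beside 29.3% of all. For the other 14 genes the groups overlapped. The scaled TPM of the 31 genes summed to 298.8, 305.5 and 312.1 in WT 1 to 3 and to 291.1 and 286.2 in C3G KO 1 and 2. Both C3G KO sums lay below all WT sums, by less than the differences of the genes called.

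**Figure D1:**
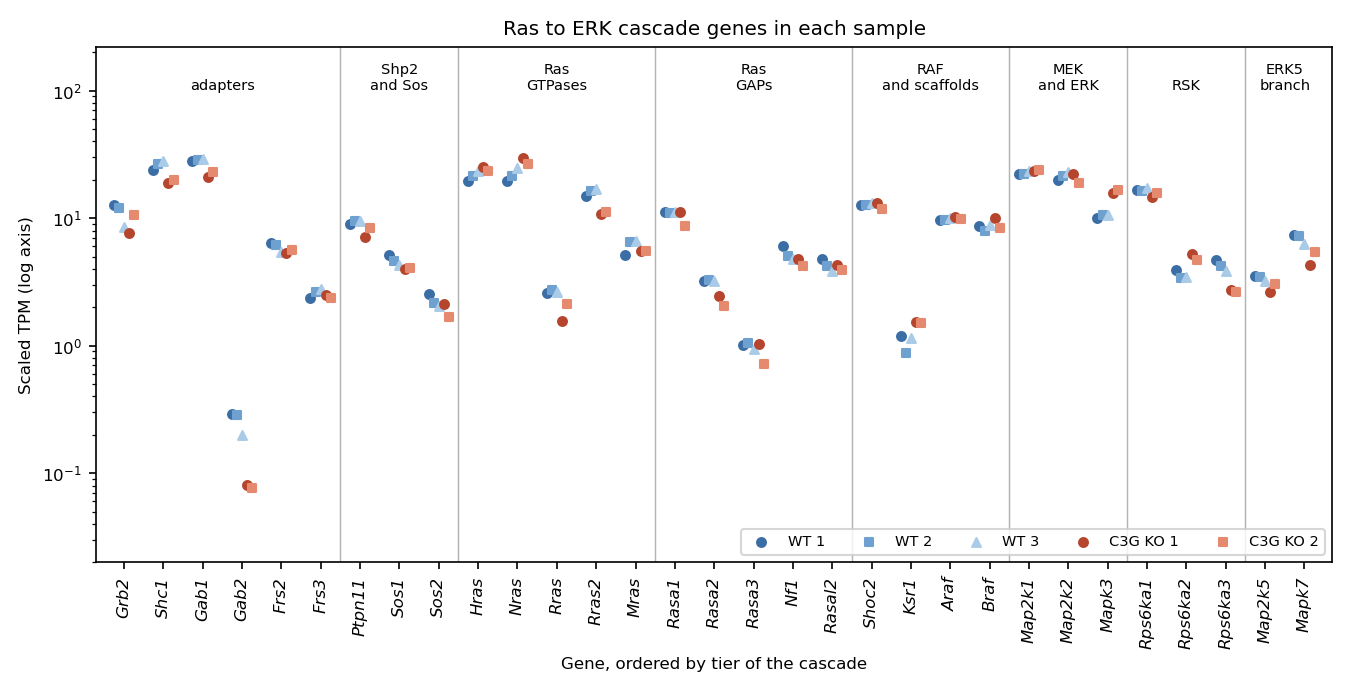
Scaled TPM on a log axis of each of the 31 genes in each of the 5 samples, grouped by tier of the cascade, with blue points for WT 1 to 3 and red points for C3G KO 1 and 2. Mapk3 stands at 15.8 and 16.8 in C3G KO above 10.03 to 10.6 in WT, an order that is lost in TPM as deposited, while Rras2 and Rps6ka3 lie below WT and Gab2 lies under 0.3 in every sample.

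Adapters link activated receptors to Ras. Of the 6 adapter genes 5 were tested, 2 were lower and 0 higher, and their median log2 difference was -0.25. Gab1, a docking protein that binds Shp2 (chromosome 8, 80764438 to 80880519), had 28.3, 28.5 and 28.9 scaled TPM in WT and 20.9 and 23.1 in C3G KO. The WT samples lay within a narrow range and both C3G KO samples lay below it, a log2 difference of -0.36 (SE 0.071, adjusted p = 0.0125). Shc1, whose product is phosphorylated by receptors and then binds Grb2 (chromosome 3, 89418443 to 89430027), had 23.8, 26.6 and 28.2 scaled TPM in WT and 18.8 and 19.9 in C3G KO. Its groups did not overlap and its log2 difference was -0.42 (SE 0.089, adjusted p = 0.0171). Neither gene passed without WT replicate 2 (Gab1 -0.36, adjusted p = 0.0592, Shc1 -0.41, adjusted p = 0.0663) or without C3G KO replicate 1 (-0.29, adjusted p = 0.0584, and -0.38, adjusted p = 0.0879), and Shc1 did not pass without C3G KO replicate 2 (-0.46, adjusted p = 0.0578).

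Grb2, the adapter that carries Sos to receptors, had 12.7, 12.1 and 8.56 scaled TPM in WT and 7.71 and 10.7 in C3G KO. WT 3 was lower than C3G KO 2, the groups overlapped, and the log2 difference of -0.25 had a wide interval from -0.72 to 0.22 (adjusted p = 0.368). The docking proteins of FGF receptors are encoded by Frs2 and Frs3. Frs2 ranged from 5.46 to 6.35 in WT and stood at 5.29 and 5.63 in C3G KO, and Frs3 ranged from 2.35 to 2.79 in WT and stood at 2.51 and 2.38 in C3G KO. Neither passed the test, with intervals of the log2 difference from -0.30 to 0.08 and from -0.25 to 0.13. Frs3 shares 509 exon bases with the antisense gene Frs3os, and the strandedness of the libraries is not given in the sources used here. Frs3-203, a transcript without a coding sequence, held 59.2%, 53.1% and 64.6% of the TPM of Frs3 in WT and 63.2% and 49.5% in C3G KO. Gab2, the paralogue of Gab1, was near the lower end of the table in all samples, with 0.39, 0.35 and 0.22 TPM as deposited in WT and 0.05 and 0.07 in C3G KO.

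Shc1 is read from more than 1 start. The pair of its transcripts that differed most in share, described below, both use the upstream start. A contrast between the starts therefore does not separate this pair. The promoter windows of the upstream and the downstream start are shown for their sequence alone. They are the 250 bases before each of the RefSeq starts of the gene (RefSeq, GRCm38.p6), both on the plus strand, at chr3:89418301-89418550 for the upstream start and chr3:89421371-89421620 for the downstream start. Capitals mark matches to the GC box GGGCGG and to the AP-1 motif TGANTCA on either strand, which were searched with the ETS motif CCGGAAG and the CArG box.
Shc1, upstream start: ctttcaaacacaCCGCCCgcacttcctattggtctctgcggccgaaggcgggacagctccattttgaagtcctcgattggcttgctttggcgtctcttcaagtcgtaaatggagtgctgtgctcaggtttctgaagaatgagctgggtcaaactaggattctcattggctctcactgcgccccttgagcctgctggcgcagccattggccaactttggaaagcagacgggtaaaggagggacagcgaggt
Shc1, downstream start: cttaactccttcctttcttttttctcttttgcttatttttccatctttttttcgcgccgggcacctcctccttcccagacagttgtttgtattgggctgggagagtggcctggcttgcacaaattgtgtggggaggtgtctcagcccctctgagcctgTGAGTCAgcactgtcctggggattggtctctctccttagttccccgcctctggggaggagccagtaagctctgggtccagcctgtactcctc
The upstream window held 1 GC box and 0 AP-1 motifs, the downstream window 1 AP-1 motif and 0 GC boxes. Of all 32851 promoter windows of this length, 32.7% held a GC box, 6.75% an AP-1 motif, 6.91% an ETS motif and 1.47% a CArG box. The cascade genes had 38 windows for 28 of the 31 genes, of which 25 held a GC box, 5 an ETS motif, 2 an AP-1 motif and 0 a CArG box. A match of this kind is a match of letters and was not tested as a site.

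The deposited table is per transcript, and 66 of 197 transcripts of the cascade genes passed the expression limit. Of these 3 were higher (4.55%, beside 3.35% of all tested transcripts) and 4 lower (6.06%, beside 5.07%). With any 1 sample left out, 0 were higher and 1 or 2 were lower, Shc1-203 among them each time (adjusted p between 0.0273 and 0.0473). Shc1-203 (ENSMUST00000107417, 424 codons) fell most, from 7.88, 7.77 and 8.95 scaled TPM in WT to 3.23 and 2.80 in C3G KO, a log2 difference of -1.19 (SE 0.099, adjusted p = 0.00624). As a share of the TPM of Shc1, which does not depend on the scaling, it held 33.1%, 29.2% and 31.7% in WT and 17.2% and 14.1% in C3G KO. Shc1-210 (ENSMUST00000191485, 469 codons) held 21.6%, 23.5% and 24.5% in WT and 32.3% and 32.5% in C3G KO, with a log2 difference of 0.04 (adjusted p = 0.878). Shc1-203 was thus the more abundant of the pair in every WT sample and the less abundant in both C3G KO samples. Of the other transcripts called, Gab1-201, with between 75.8% and 80.7% of Gab1, fell by 0.39 on the log2 scale in scaled TPM (adjusted p = 0.0355). The nonsense-mediated decay transcript Hras-206, which holds between 8.03% and 13.9% of Hras and is named after its value was seen, was higher by 0.49 (adjusted p = 0.0299) on the log2 scale in scaled TPM. In the TPM as deposited, the same log2 difference of Hras-206 was 5.32e-05, with a 95% interval from -0.47 to 0.47.

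Shc1-203 and Shc1-210 have 13 exons each and differ only in 75 bases that Shc1-210 has and Shc1-203 lacks, 63 at the 5′ end and 12 at the 3′ end, so the division of reads between them rests on those bases. Both use the upstream start. The 6 transcripts that begin within 200 bases of the first base of either held 64.2%, 63.7% and 66.8% of the TPM of Shc1 in WT and 64.3% and 64.2% in C3G KO, inside the WT range. The 2 transcripts of the downstream start, Shc1-202 with 579 codons and Shc1-206, held 28.3%, 25.3% and 26.1% in WT and 28.1% and 24.5% in C3G KO, so that the groups overlapped and C3G KO 2 lay below the WT range. The other 2 transcripts, Shc1-207 and Shc1-208, begin elsewhere and held between 7.09% and 11.0% in WT and 7.67% and 11.3% in C3G KO. Shc1-202 itself had 6.19, 6.43 and 7.18 scaled TPM in WT and 5.17 and 4.58 in C3G KO (log2 difference -0.37, adjusted p = 0.0793).

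**Figure D2:**
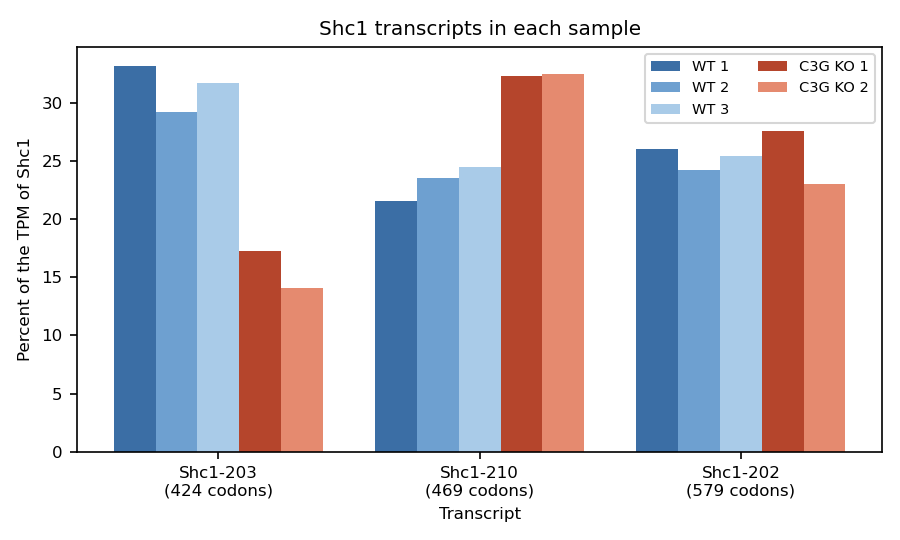
Share of the TPM of Shc1, in percent from 0, held by the 3 Shc1 transcripts with at least 20% of the gene in either group, in each sample, ordered by coding length in codons. Shc1-203 holds 29.2% or more in WT and 17.2% or less in C3G KO, Shc1-210 is higher in C3G KO than in WT, and Shc1-202 stays between 23.0% and 27.6%.

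Shp2, the phosphatase encoded by Ptpn11, and the exchange factors Sos1 and Sos2 form the step to Ras. None of these 3 genes passed the test by limma, 1 of them (Ptpn11) had an unadjusted p under 0.05, and Ptpn11 and Sos1 lay below WT in both C3G KO samples, and with TPM as deposited all 3 were called lower. Ptpn11 had 8.95, 9.53 and 9.49 scaled TPM in WT and 7.16 and 8.40 in C3G KO, a log2 difference of -0.24 with an interval from -0.43 to -0.04 (adjusted p = 0.0721). Without C3G KO replicate 2 it was -0.34 and passed (adjusted p = 0.0449). Sos1 had 5.12, 4.62 and 4.27 in WT and 3.99 and 4.03 in C3G KO, and its interval ran from -0.37 to 0.02. Sos2 ranged from 2.07 to 2.53 in WT and stood at 2.12 and 1.69 in C3G KO, with an interval from -0.41 to 0.08. Sos1 was about 2.07 times as abundant as Sos2 in WT and 2.14 times in C3G KO, and the ratio in the C3G KO samples lay on either side of the WT range.

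Among the 5 Ras GTPase genes, 2 were lower and 3 did not pass. Rras2 (TC21, chromosome 7, 114046782 to 114117781) had 14.9, 16.4 and 17.0 scaled TPM in WT and 10.8 and 11.1 in C3G KO. Both C3G KO samples lay well below all WT samples, a fall of 0.52 on the log2 scale (SE 0.074, adjusted p = 0.0046). The call was made under all 16 alternatives, which do not include TPM as deposited with a sample left out. Rras (R-Ras, chromosome 7, 45017961 to 45021647) had 2.61, 2.75 and 2.65 in WT and 1.57 and 2.11 in C3G KO. It fell by 0.38 (SE 0.097, adjusted p = 0.0305), a call that 9 of 15 alternatives gave. The difference was between -0.39 and -0.36 without WT replicate 1, 2 or 3 (adjusted p between 0.0619 and 0.0944) and -0.24 without C3G KO replicate 1 (adjusted p = 0.104), and did not pass. Rras2 was the more abundant of the pair in all samples, with a log2 ratio of Rras to Rras2 of -2.59 in both groups.

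The promoter window of Rras2 is shown because the call of the gene held under all 16 alternatives. It lies at chr7:114117782-114118031 on the minus strand (RefSeq, GRCm38.p6) and is printed 5′ to 3′, with 2 matches to the GC box in capitals.
Rras2: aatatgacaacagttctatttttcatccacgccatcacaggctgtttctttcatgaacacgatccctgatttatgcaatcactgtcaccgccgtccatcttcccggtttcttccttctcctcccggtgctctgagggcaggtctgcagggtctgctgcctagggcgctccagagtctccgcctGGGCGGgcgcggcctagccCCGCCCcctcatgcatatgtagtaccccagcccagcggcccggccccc
The 3 RefSeq windows of Rras held no match to any of the 4 motifs. Nearly all RNA of Rras2 was assigned to Rras2-201, between 95.6% and 97.7% in all samples, and this transcript was also called lower (log2 difference -0.51, adjusted p = 0.0325). Unlike the gene, it did not pass with any WT sample left out (adjusted p between 0.0531 and 0.147).

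Hras and Nras encode the classical Ras proteins and were more abundant than the R-Ras family genes in every sample. Nras had 19.5, 21.3 and 24.6 scaled TPM in WT and 29.5 and 26.5 in C3G KO. Both C3G KO samples lay above WT, a log2 difference of 0.35 with an interval from 0.08 to 0.62 that did not pass after adjustment (SE 0.111, adjusted p = 0.0564), and it was -0.32 in TPM as deposited. Without WT replicate 3 it was 0.44 and passed (adjusted p = 0.0253). Its main transcript Nras-201, which held between 52.0% and 60.5% of the gene, was called higher with a log2 difference of 0.38 (adjusted p = 0.0439) on scaled TPM, and stood at -0.27 as deposited. Nras-201 did not pass with any WT sample left out (adjusted p between 0.0890 and 0.182). Hras ranged from 19.6 to 23.6 in WT and stood at 25.4 and 23.3 in C3G KO, with overlapping groups and an interval from -0.06 to 0.40. Within each sample the ratio of Hras to Nras was between 0.959 and 1.01 in WT and 0.861 and 0.880 in C3G KO. Mras, the GTPase that works with Shoc2, ranged from 5.14 to 6.59 in WT and stood at 5.48 and 5.50 in C3G KO, inside the WT range.

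GAPs switch Ras off. Of the 5 GAP genes 1 was lower and 4 did not pass, with a median of -0.15. Rasa2 (chromosome 9, 96539300 to 96631617) had 3.23, 3.25 and 3.22 scaled TPM in WT and 2.44 and 2.06 in C3G KO. The WT samples were almost equal and both C3G KO samples lay below them, a fall of 0.38 (SE 0.075, adjusted p = 0.013), and the difference did not pass without WT replicate 2 (-0.38, adjusted p = 0.0528) or without C3G KO replicate 2 (-0.30, adjusted p = 0.0552). Rasa1, the first known RasGAP, had 11.1 in all 3 WT samples and 11.2 and 8.71 in C3G KO, so that the C3G KO samples stood on either side of WT. Its log2 difference was -0.15 (adjusted p = 0.309), and without C3G KO replicate 1 it was -0.32 and passed (adjusted p = 0.0418). Nf1, which encodes neurofibromin, ranged from 4.77 to 6.01 in WT and stood at 4.78 and 4.18 in C3G KO, with an interval from -0.45 to 0.06. Rasal2 and Rasa3, a GAP that also acts on Rap1, had log2 differences of -0.04 and -0.09, and their direction turned with quantile normalization, with the length and GC correction and without C3G KO replicate 2. Rasal2 shares 244 exon bases with the pseudogene 2810025M15Rik on the other strand, which had a mean of 17.7 TPM in WT and 13.8 in C3G KO.

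The RAF kinases and their scaffolds showed no call in either direction by limma, with 1 gene (Ksr1) at an unadjusted p under 0.05 and a median of 0.07 and an all-gene median of 0.0052. Shoc2, a scaffold that helps to activate RAF, ranged from 12.7 to 13.2 scaled TPM in WT and stood at 13.1 and 11.8 in C3G KO. Araf ranged from 9.69 to 9.96 in WT and stood at 10.3 and 9.82 in C3G KO, with a log2 difference of 0.03 and a narrow interval from -0.11 to 0.18. Braf ranged from 7.91 to 8.80 in WT and stood at 10.1 and 8.32 in C3G KO (interval from -0.13 to 0.34). Both Araf and Braf turned to lower values with TPM as deposited and with protein-coding scaling, and Braf shares 146 exon bases with Ndufb2, which had 37.8 TPM in WT and 23.7 in C3G KO. Ksr1, the scaffold that holds RAF, MEK and ERK together, had 1.198, 0.877 and 1.14 in WT and 1.54 and 1.501 in C3G KO. Both C3G KO samples lay above WT, the log2 difference was 0.28 (SE 0.095, adjusted p = 0.0667), and with the length and GC correction it was 0.47 and passed (adjusted p = 0.0123), as it did with quantile normalization (0.39, adjusted p = 0.0409), whereas it was -0.10 as deposited. The level of Ksr1 was the lowest of this tier.

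MEK and ERK are the last kinases of the core cascade. Mapk3 (ERK1, chromosome 7, 126759601 to 126765819) had 10.03, 10.6 and 10.5 scaled TPM in WT and 15.8 and 16.8 in C3G KO. Both C3G KO samples lay far above a tight WT group, 56.6% higher on average, a log2 difference of 0.60 with an interval from 0.44 to 0.76 (SE 0.064, adjusted p = 0.00168). As deposited, Mapk3 had 13.39, 12.98 and 11.63 TPM in WT, against 9.78 and 15.20 in C3G KO, so that the C3G KO samples stood on either side of WT, and its log2 difference of -0.05 was 0.50 above the median of all tested genes. It was called higher under 15 of 16 alternatives, all but TPM as deposited. With TPM as deposited and a WT sample left out, fits not among the 16, 0 cascade genes were called higher. Mapk3 held 3.36%, 3.48% and 3.38% of the TPM of the 31 genes in WT and 5.43% and 5.86% in C3G KO, a share that needs no scaling.

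Map2k1 and Map2k2 encode MEK1 and MEK2, the kinases that phosphorylate ERK, and did not pass. Map2k1 had 22.1, 22.0 and 23.2 scaled TPM in WT and 23.6 and 23.7 in C3G KO, with a log2 difference of 0.07 and an interval from -0.08 to 0.23. Map2k2 ranged from 19.9 to 23.0 in WT and stood at 22.1 and 18.8 in C3G KO, with an interval from -0.30 to 0.17. Of the 3 genes of this tier Mapk3 alone was called. Its ratio to Map2k1 within a sample was 0.455, 0.483 and 0.453 in WT and 0.670 and 0.707 in C3G KO, a pair that was picked after the values were seen.

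The RSK kinases are phosphorylated by ERK. Of the 3 RSK genes of this tier 1 rose in scaled TPM, 1 fell and 1 did not pass. Rps6ka3 (RSK2, chromosome X, 159210307 to 159368244) had 4.73, 4.25 and 3.85 scaled TPM in WT and 2.75 and 2.65 in C3G KO. It fell by 0.51 (SE 0.086, adjusted p = 0.00813) with groups that did not overlap, a call made under all 16 alternatives. Rps6ka2 (RSK3, chromosome 17, 7170115 to 7303315) had 3.90, 3.40 and 3.43 in WT and 5.21 and 4.72 in C3G KO. It rose by 0.38 (SE 0.079, adjusted p = 0.0157), but stood at -0.18 in TPM as deposited, which is 0.37 above the median of all tested genes, and it did not pass with protein-coding scaling, without WT replicate 2 (0.36, adjusted p = 0.0615) or without C3G KO replicate 1 (0.32, adjusted p = 0.0809). Rps6ka3 was the more abundant of the pair in every WT sample and Rps6ka2 in both C3G KO samples, with a ratio of Rps6ka2 to Rps6ka3 between 0.801 and 0.892 in WT and of 1.89 and 1.78 in C3G KO, again a pair picked after the values were seen. Rps6ka1 (RSK1) was the most abundant of these 3 genes, with 16.4 to 17.3 in WT and 14.8 and 15.7 in C3G KO. It did not pass (interval from -0.29 to 0.03). A further RSK gene, Rps6ka6 (RSK4), is counted here among the other kinases activated by ERK. It had 13.9, 14.3 and 15.0 scaled TPM in WT and 15.3 and 17.3 in C3G KO, above Rps6ka1 in both C3G KO samples. Its log2 difference of 0.17 did not pass (adjusted p = 0.143) and was -0.49 as deposited. The RSK transcripts that carried most of the RNA followed their genes, with -0.51 for Rps6ka3-201 (adjusted p = 0.0272) and 0.39 for Rps6ka2-201 (adjusted p = 0.0445), the latter at -0.12 as deposited. Neither transcript passed with any WT sample left out (adjusted p between 0.0795 and 0.127 for Rps6ka3-201 and 0.105 and 0.182 for Rps6ka2-201).

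The promoter window of Rps6ka2 is shown beside that of Rras2 as that of a gene that rose in scaled TPM, though not in TPM as deposited. It lies at chr17:7169865-7170114 on the plus strand (RefSeq, GRCm38.p6) and also holds 2 matches to the GC box, in capitals.
Rps6ka2: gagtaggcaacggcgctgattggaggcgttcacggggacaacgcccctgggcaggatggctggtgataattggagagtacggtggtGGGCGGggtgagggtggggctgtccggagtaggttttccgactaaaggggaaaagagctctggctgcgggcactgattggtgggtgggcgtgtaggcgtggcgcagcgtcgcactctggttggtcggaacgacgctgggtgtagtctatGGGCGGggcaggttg
A GC box was found in the windows of both the gene that rose and the gene that fell.

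ERK5, encoded by Mapk7, is activated by MEK5, encoded by Map2k5, in a branch parallel to ERK1. Mapk7 (chromosome 11, 61488812 to 61494406) had 7.42, 7.21 and 6.28 scaled TPM in WT and 4.30 and 5.44 in C3G KO. It fell by 0.44 (SE 0.110, adjusted p = 0.0273), and with the length and GC correction the difference was -0.30 and did not pass (adjusted p = 0.0828). It did not pass either without WT replicate 1 (-0.40, adjusted p = 0.0764), WT replicate 2 (-0.42, adjusted p = 0.0837) or C3G KO replicate 1 (-0.30, adjusted p = 0.119). Map2k5 had 3.50, 3.46 and 3.19 in WT and 2.62 and 3.02 in C3G KO, below WT in both samples, with a log2 difference of -0.20 that did not pass (adjusted p = 0.101). The ratio of Map2k5 to Mapk7 within a sample was 0.472, 0.480 and 0.508 in WT and 0.609 and 0.556 in C3G KO.

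**Figure D3:**
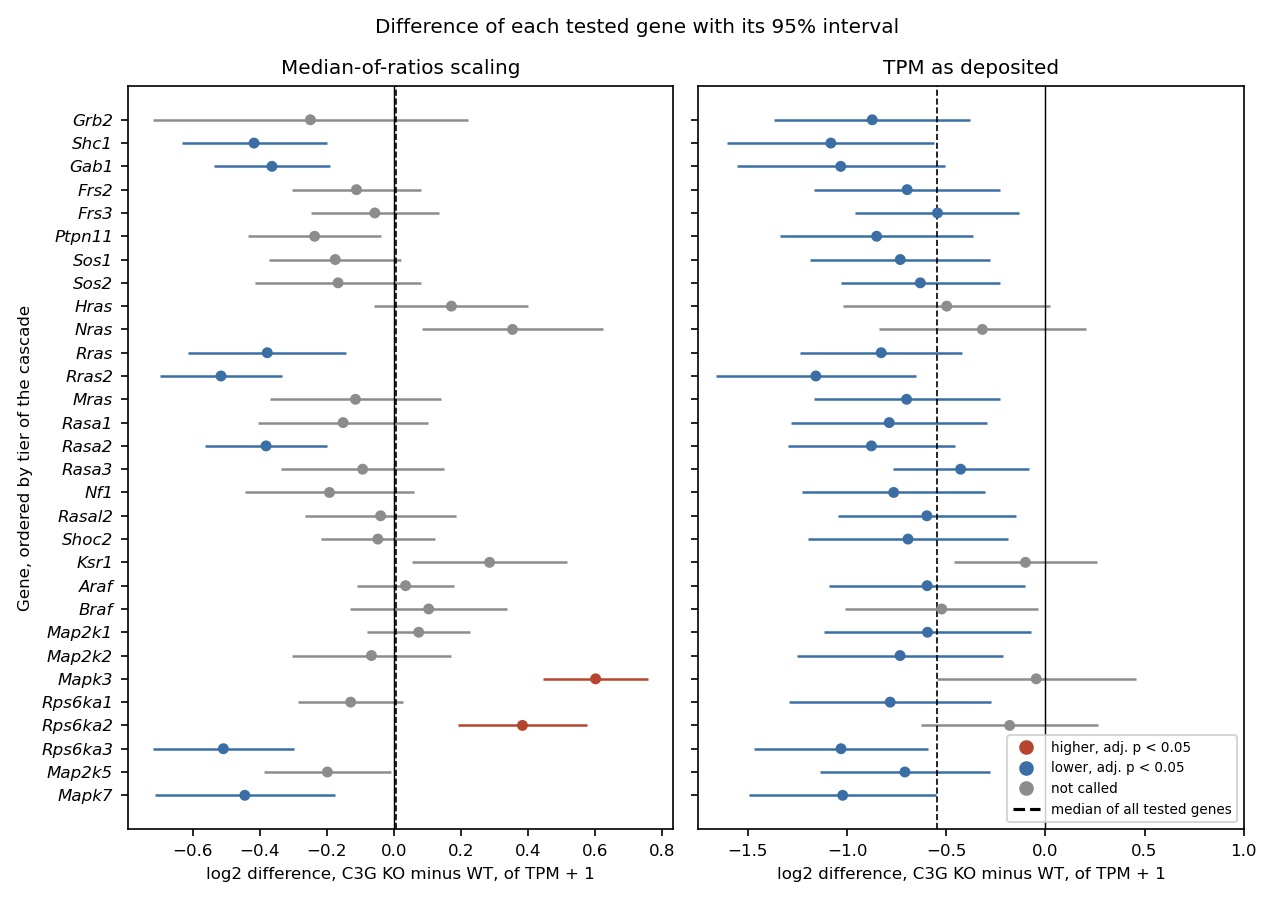
Log2 difference between C3G KO and WT of each of the 30 tested genes with its 95% interval, after median-of-ratios scaling on the left and for TPM as deposited on the right, with the median of all tested genes as a dashed line. Red marks genes called higher and blue genes called lower at an adjusted p under 0.05, and Mapk3 and Rps6ka2 lie right of the dashed line in both panels but below 0 for TPM as deposited.

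Set side by side, the tiers had medians of the log2 difference of -0.25 for the adapters, -0.18 for Shp2 and Sos, -0.12 for the Ras GTPases, -0.15 for the GAPs, 0.07 for RAF and its scaffolds, 0.07 for MEK and ERK, -0.13 for RSK and -0.32 for the ERK5 branch. With TPM as deposited all 8 medians were below 0, between -0.87 and -0.56. With the length and GC correction they were, in the same order, -0.23, -0.11, -0.13, -0.08, 0.10, 0.07, 0.0024 and -0.24. The tiers hold 2 to 5 tested genes each, which are not replicates, and their medians were not tested. As shares of the TPM of the 31 genes, which need no scaling, the adapters held 24.7%, 25.0% and 23.7% in WT and 19.0% and 21.6% in C3G KO. MEK and ERK held 17.4%, 17.7% and 18.2% in WT and 21.1% and 20.7% in C3G KO. The ERK5 branch held between 3.03% and 3.65% in WT and 2.38% and 2.96% in C3G KO, and Shp2 and Sos between 5.07% and 5.56% in WT and 4.56% and 4.93% in C3G KO. The adapters, Shp2 and Sos and the ERK5 branch thus lay lower and MEK and ERK higher in both C3G KO samples. These shares hold no correction for transcript length or GC. The Ras GTPases and RAF with its scaffolds also lay above WT in both C3G KO samples, by little in 1 of them, and the shares of the GAPs and RSK overlapped.

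**Figure D4:**
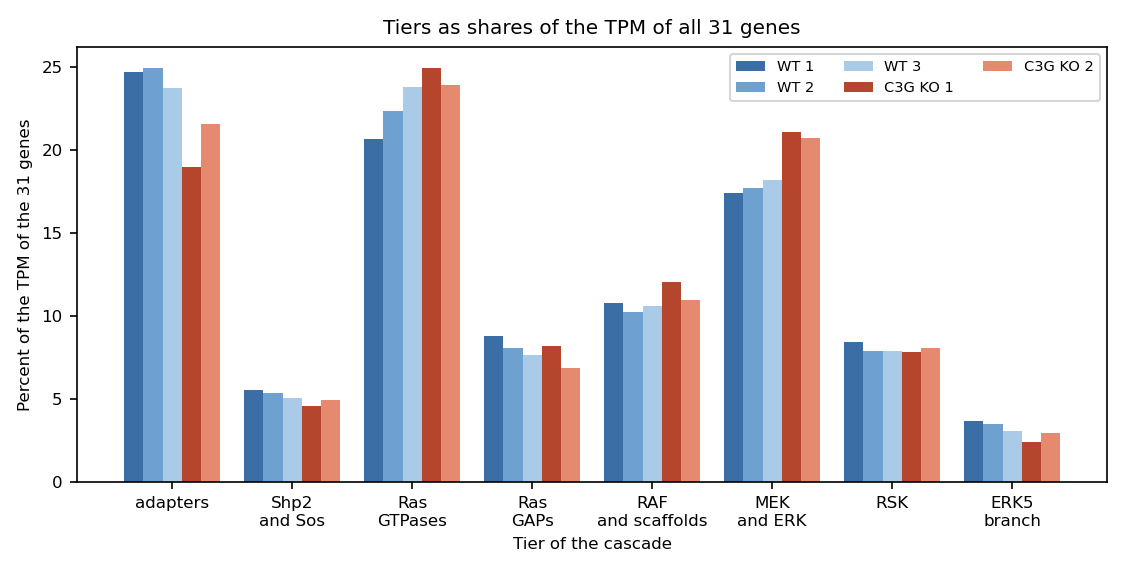
Share of the summed TPM of the 31 genes, in percent from 0, held by each tier of the cascade in WT 1 to 3 in blue and C3G KO 1 and 2 in red. The adapters hold 23.7% or more in WT and 21.6% or less in C3G KO, and MEK and ERK 18.2% or less in WT and 20.7% or more in C3G KO.

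Ratios of pairs of genes within a sample do not depend on the scaling either. Of 10 listed pairs of paralogues or partners, the groups did not overlap for 4, Gab1 to Gab2, Hras to Nras, Rps6ka1 to Rps6ka3 and Map2k5 to Mapk7. With 3 against 2 samples the smallest p of the exact permutation test, two-sided, is 0.1, so none of these can pass a threshold of 0.05, also before adjustment over the pairs. The ratio of Rps6ka1 to Rps6ka3 was 3.52, 3.85 and 4.48 in WT and 5.38 and 5.92 in C3G KO, which is the largest of these differences apart from that of Gab1 to Gab2, whose denominator is near 0. The ratios of Sos1 to Sos2, Rras to Rras2, Rasa1 to Nf1, Araf to Braf, Map2k1 to Map2k2 and Grb2 to Shc1 overlapped between the groups. Of 5 pairs added after the values were seen, those of Mapk3 to Mapk7, of Nras to Rras2 and of Rps6ka2 to Rps6ka3 differed most between the groups. The first 2 had log2 means of 0.58 and 0.43 in WT and of 1.75 and 1.35 in C3G KO.

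**Figure D5:**
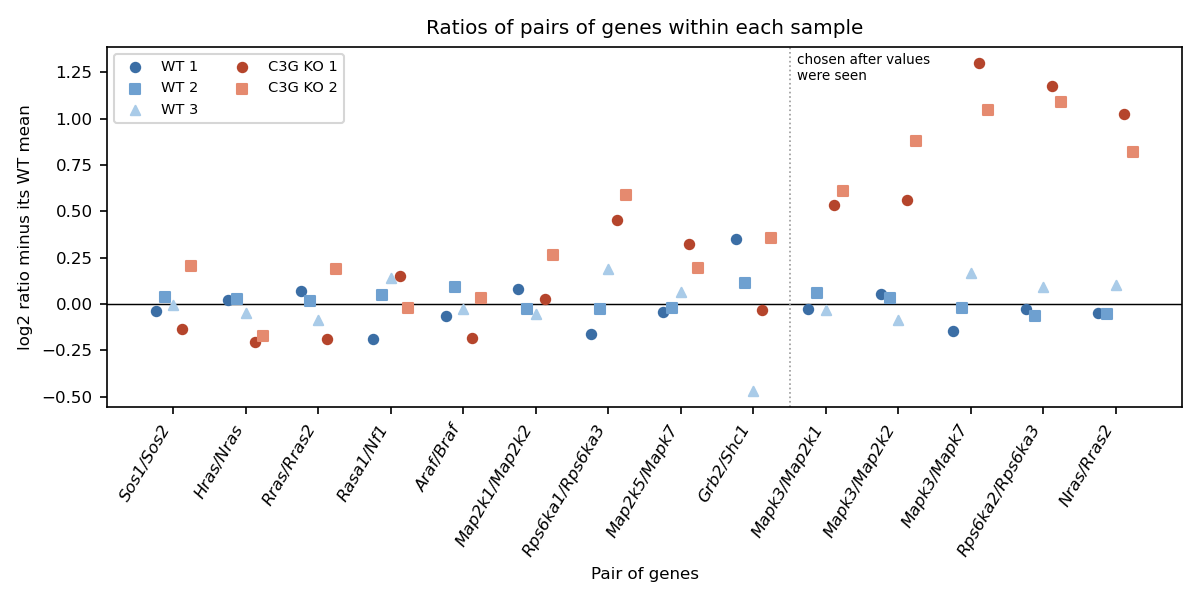
Log2 ratio of pairs of genes within each sample, minus the mean of the WT samples, for 9 of the 10 listed pairs and, right of the dotted line, 5 pairs chosen after the values were seen. C3G KO lies clear of WT for Rps6ka1 to Rps6ka3, for Map2k5 to Mapk7 and, below it, for Hras to Nras, and overlaps WT for the other 6 pairs on the left.

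Beside the 31 genes, 60 other genes of the pathway were followed, of which 43 were tested. With scaled TPM 6 of them were higher (13.95%, beside 14.1% of all) and 5 lower (11.6%, beside 16.6%). With TPM as deposited 0 were higher, beside 1.45% of all, and 26 lower (60.5%, beside 56.8%), a share near that of all tested genes. Among the other adapters, Sh2b1 and Dok1 fell by 0.43 and 0.79 on the log2 scale. Among the other Ras-family GTPases, Eras, an ES cell Ras that needs no activation, had 15.5, 16.3 and 19.0 scaled TPM in WT and 28.7 and 24.5 in C3G KO, and rose by 0.62 (SE 0.112, adjusted p = 0.00992). Ralb, a GTPase downstream of Ras, rose by 0.31, and as deposited the groups overlapped for both, with log2 differences of -0.04 and -0.29.

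The GAP genes Rasa4 and Dab2ip moved apart, a rise of 0.64 and a fall of 0.59 in scaled TPM. As deposited Rasa4 stood at 0.14 with overlapping groups and did not pass (adjusted p = 0.546). Among the regulators and scaffolds of RAF and MEK, Lamtor2, part of a scaffold of MEK on late endosomes, rose by 0.74 in scaled TPM. As deposited it stood at 0.08 with overlapping groups and did not pass (adjusted p = 0.774). Pebp1, an inhibitor of RAF, rose by 0.51 in scaled TPM and stood at -0.18 as deposited. Pea15a, which holds ERK in the cytoplasm, had 6.83, 6.89 and 7.21 scaled TPM in WT and 3.99 and 3.79 in C3G KO and fell by 0.71 (SE 0.062, adjusted p = 0.000879). Among the other kinases activated by ERK, Rps6ka4 fell by 0.46, and Rps6ka5 rose by 0.52 in scaled TPM and stood at -0.0015 as deposited. Of 6 other Ras exchange factors 2 were tested and 0 passed by limma, also at an unadjusted p under 0.05. The adjusted p of the 11 genes called was between 0.000879 and 0.0223. Without C3G KO replicate 1, Sh2b1 stood at -0.33 (adjusted p = 0.0810), Eras at 0.51 (0.0592), Pebp1 at 0.45 (0.0883) and Rps6ka4 at -0.41 (0.0619), and none of these passed. Without WT replicate 2, Sh2b1 (-0.44, adjusted p = 0.0528), Ralb (0.29, adjusted p = 0.0876) and Pebp1 (0.50, adjusted p = 0.0664) did not pass, nor did Ralb without WT replicate 3 (0.30, adjusted p = 0.0553) or C3G KO replicate 2 (0.24, adjusted p = 0.0953). With the length and GC correction Sh2b1 and Rps6ka4 did not pass either, with adjusted p of 0.0601 and 0.0650.

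ES cell markers were present in all samples, with sums of 8 genes of 1536, 1777 and 1943 scaled TPM in WT and 2717 and 2404 in C3G KO, of which 1 passed as higher. The sum of 7 fibroblast markers was between 3.71 and 4.43 in WT and 1.71 and 1.66 in C3G KO, with both of the tested genes lower. Mesoderm markers summed to between 5.57 and 6.78 in WT and 2.81 and 3.98 in C3G KO, trophoblast markers to between 12.9 and 15.1 and to 9.58 and 11.0, neural markers to between 12.2 and 13.9 and to 25.5 and 23.2, and endoderm markers to between 2.17 and 2.39 and to 4.44 and 5.15. All of these sums separated the groups, but single genes made up much of them. Dppa5a held 979, 1173 and 1288 scaled TPM in WT and 2024 and 1713 in C3G KO of the ES cell sum, Tubb3 between 9.30 and 12.1 in WT and 22.3 and 19.3 in C3G KO of the neural sum, and T between 3.27 and 4.25 in WT and 0.905 and 1.46 in C3G KO of the mesoderm sum. The mesoderm gene Eomes overlapped between the groups, none of the 6 endoderm markers reached the expression limit, and Neurog2 stood at 0 in every sample. The part of these markers, and of the larger share of small RNA in C3G KO, in the differences of the cascade genes was not tested.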

How the data were processed

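RNA of 3 WT and 2 C3G KO samples of E14Tg2a cells was sequenced as paired-end reads. Per the submitters' processing notes, bcl2fastq 2.20, FastQC 0.11.7, STAR 2.5.1b and RSEM 1.2.31 were used with mm10 or GRCm38. The authors deposited TPM per Ensembl transcript, a unit that has the same total in every sample, keeps no read number and so leaves the depth unknown. From the table, 141524 of 142647 transcripts could be matched to GENCODE M21, leaving out 1123, and the TPM of each symbol were added up. Genes and transcripts with at least 1 TPM in at least 2 samples were kept. TPM were scaled by medians of ratios, after the size factors of the count method that the study names, and log2(scaled TPM + 1) was compared with limma 3.58.1 (R 4.3.3) with a mean-variance trend, two-sided, with Benjamini-Hochberg adjustment over all tested genes or transcripts. The prior degrees of freedom were 3.11 with scaling and infinite as deposited, so that without scaling each p-value rests on a variance shared between genes. The procedure was tested on simulated data. The members and lists were chosen with earlier results of these data known. All 31 genes are named, of each list of other pathway genes up to 2 called higher and 2 called lower with the largest differences, and of transcripts those past the threshold with at least 20% of their gene. Alternatives were TPM as deposited, protein-coding scaling, quantile normalization, a pseudocount of 0.1 or 5, a filter of 5 TPM or none, no trend, a length and GC correction with a span of 0.5, a replicate block, both of these together and each sample left out. Leaving out samples with TPM as deposited, and 5 of the ratios, were added after seeing the data. The fits so added are not among the alternatives counted for single genes.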

Additional observations from a re-analysis of the deposited data

How the results depend on the processing

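TPM leave the depth unknown, and 2 C3G KO samples limit the precision. With 1 C3G KO sample left out, the lone sample is assumed to vary like WT. Transcript length and the log2 difference had a Spearman correlation of -0.31 across genes, which are not independent replicates, and -0.04 after the length and GC correction. Of the results that answer a comparison, 169 values stayed close to the main ones, 70 moved and 1 was weaker. The cause of the other movements was not tested.

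Genes of the cascade called higher, 2 in the main comparison, were 0 as deposited, 1 with protein-coding scaling, 1 with a filter of 5 TPM, 4 with the replicate block and length and GC correction, and 1 to 3 with a sample left out, or 0 as deposited. Those called lower, 7 in the main comparison, were 24 as deposited, 15 with protein-coding scaling and 4 with the block and correction. Of all tested genes, 16.6%, 56.8%, 29.8% and 14.6% were lower in these settings. With a WT sample left out, 2 to 6 cascade genes were lower, beside 10.6% to 14.7% of all tested genes. As deposited these were 7 to 18, with 18 without WT replicate 3, beside 17.0% to 40.4%. Of the other pathway genes, 0 were higher as deposited and 4 to 7 with a sample left out, and 26 were lower as deposited, 11 with protein-coding scaling, 3 with a filter of 5 TPM, 3 with the correction, 3 with block and correction, and 3 to 6 with a sample left out. Transcripts higher were 0 as deposited, 1 without the trend, 0 with the block and 0 with any sample left out, and transcripts lower were 16 as deposited, 0 with the block and 1 to 2 with a sample left out.

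The median log2 differences, as deposited and with protein-coding scaling, were -0.87 and -0.45 for the adapters, -0.73 and -0.36 for Shp2 and Sos, -0.70 and -0.30 for the Ras GTPases, -0.77 and -0.36 for the GAPs, -0.56 and -0.13 for RAF and scaffolds, -0.59 and -0.14 for MEK and ERK, -0.78 and -0.34 for RSK and -0.87 and -0.50 for the ERK5 branch. With a filter of 5 TPM they were 0.0279 for the Ras GTPases, -0.32 for RSK and -0.44 for the ERK5 branch, which was -0.19 with a pseudocount of 5. MEK and ERK stood at -0.00561 with quantile normalization, RSK at 0.00238 with the correction and 0.0208 with block and correction, and Shp2 and Sos at -0.0884 with block and correction. With a sample left out, the adapters ranged from -0.44 to -0.0827, the GAPs ranged from -0.27 to 0.0105 and RAF and scaffolds from -0.00972 to 0.15. The adapters stood at the upper and RAF and scaffolds at the lower end without C3G KO replicate 1, and the GAPs at the upper end without C3G KO replicate 2.

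Some log2 differences changed sign. As deposited these were Hras -0.50, Nras -0.32, Ksr1 -0.10, Araf -0.60, Braf -0.52, Map2k1 -0.59, Mapk3 -0.0463, Rps6ka2 -0.18, Eras -0.0444, Ralb -0.29, Pebp1 -0.18, Rps6ka5 -0.00146, Nras-201 -0.27 and Rps6ka2-201 -0.12. With protein-coding scaling they were Hras -0.0425, Araf -0.17, Braf -0.0972 and Map2k1 -0.14, and with quantile normalization Frs3 0.0173, Rasa3 0.0387, Rasal2 0.0188 and Map2k1 -0.00561. With the correction they were Frs3 0.0397, Rasa3 0.00635, Rasal2 0.0598, Map2k2 0.0494 and Rps6ka1 0.00238, and with block and correction Frs3 0.0678, Rasal2 0.0219, Map2k2 0.0896 and Rps6ka1 0.0208. With a sample left out, the ranges were Rasa1 from -0.32 to 0.0148, Rasa3 from -0.22 to 0.0284, Rasal2 from -0.0988 to 0.0285, Shoc2 from -0.12 to 0.0227, Braf from -0.0239 to 0.23 and Map2k2 from -0.18 to 0.0426.

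Whether the replicate numbers pair the samples cannot be told from these values. The deviations of same-numbered samples correlated at -0.18 for number 1 and 0.18 for number 2. With 2 C3G KO samples, however, their deviations from the group mean are opposite by construction, so these correlations cannot decide it. The replicate block gave 3 higher and 7 lower cascade genes and 0 of 25166 transcripts called, with Shc1-203 at -1.14 (adjusted p = 0.108) and Nras passing at 0.44 (adjusted p = 0.0325). With the block and the length and GC correction Rapgef1 stood at -0.20 (adjusted p = 0.122), Shc1 at -0.29 (adjusted p = 0.0536), Gab1 at -0.23 (adjusted p = 0.0858) and Rasa2 at -0.31 (adjusted p = 0.0601), and none of these passed.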

Other observations

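The share of the main Grb2 transcript varied within the groups, with Grb2-201 at 63.2%, 66.8% and 92.2% of the TPM of the gene in WT 1 to 3 and 96.2% and 81.6% in C3G KO 1 and 2. Mapk3-202, with 380 codons, held 39.1%, 65.9% and 58.3% of Mapk3 in WT and 64.7% and 75.6% in C3G KO, and Mapk3-203, with 265 codons, held 51.8%, 29.3% and 37.1% in WT and 32.2% and 22.8% in C3G KO. For both genes the groups overlapped, and WT 1 stood apart from the other WT samples for Mapk3 and WT 3 for Grb2. Araf-201, with 604 codons, held 30.5%, 33.6% and 35.1% of Araf in WT and 39.8% and 38.7% in C3G KO, and Map2k1-201, with 393 codons, held 73.4%, 75.8% and 74.3% of Map2k1 in WT and 77.0% and 80.1% in C3G KO. In these genes the C3G KO samples lay above WT while neither the gene nor the transcript passed the test.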
